A study of Mus musculus with 24 samples.

Results

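The variable (V) segments of antibody genes were followed through 24 RNA sequencing libraries of mouse pancreatic tumour. A segment was included where the deposited count table gave its row the biotype IG_V_gene and where its reads summed to at least 10 over the 24 libraries. This held for 158 of the 218 rows of that biotype, in a table of 54532 genes. They comprise 78 heavy chain segments on chromosome 12, 77 kappa light chain segments on chromosome 6 and 3 lambda light chain segments on chromosome 16. Of the 60 rows left out, 25 had no read and 35 had between 1 and 9, and together they held 157 reads against 34259 in the 158 segments. Just inside the minimum, 10 segments had totals of 10 to 12, and just outside it 10 rows had totals of 7 to 9.

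All 24 libraries come from day 24 and fall into 4 groups of 6. The controls received PBS, a saline buffer, and the treated groups are labelled GEM, IGEL and LIGEL. The labels do not expand these 3 names, and the title of the series speaks of priming with losartan, an angiotensin receptor blocker, before a nanocarrier that joins chemotherapy and immunotherapy. Strain, genotype, age, and whether the 6 libraries of a group came from 6 animals are not given in the sources used here, so the p-values below measure only the spread between these libraries, which may be technical in part. Sample titles name muscle while the tissue field names pancreatic tumour. The 8 tumour epithelium genes summed to 534.7 to 1687 CPM (counts per 1e06 counts, after scaling by TMM composition factors), and the 8 skeletal muscle genes to 12.2 to 26.7 CPM in 23 libraries and 324.8 CPM in IGEL replicate 4. Library totals ran from 27.1 to 40.5 M counts (M is 1e06). PBS replicate 5 stood apart, with 605544 CPM in 10 acinar genes against 49.9 to 166026 CPM elsewhere. The prefixes A1_, A2_ and A3_ stand in the column names of 6 libraries: replicate 1 of IGEL, replicates 1 and 2 of LIGEL and replicates 1 to 3 of GEM. No PBS library has one of these 3 prefixes. The 6 are called the A1 to A3 libraries below. Many of the group differences below are given with and without them.

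Each B cell builds its antibody by joining a V segment to short D and J segments in the heavy chain, and a V to a J segment in the light chain, and its daughter cells keep that choice. Plasma cells, the secreting end stage, fill much of their messenger RNA with antibody transcripts, so in bulk tissue a few clones can hold a large share of all V reads. The constant genes downstream set the class: Ighm for IgM, the Ighg genes for IgG and Igha for IgA, the class made mostly at mucosal surfaces. In bulk RNA, fewer cells and less RNA per cell cannot be told apart, and a read count per segment does not separate rearranged from unrearranged transcripts.

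The first pair of sequences is from the V exon of Ighv9-3 (heavy chain), the most abundant segment, and of its closest relative Ighv9-2. They are shown because reads of such relatives are the ones that counting can misplace. All sequences are the reference exons of GENCODE mouse release 21 on build GRCm38 (mm10), written 5' to 3' in the direction of the gene. The last 300 bases of each exon are printed, at chr12:114140692-114140991 for Ighv9-3 and chr12:114109001-114109300 for Ighv9-2, both on the minus strand. The whole exons differ at 17 of 305 bases (94.4% identity), and capitals mark the 15 differing bases within the printed stretch.
Ighv9-3: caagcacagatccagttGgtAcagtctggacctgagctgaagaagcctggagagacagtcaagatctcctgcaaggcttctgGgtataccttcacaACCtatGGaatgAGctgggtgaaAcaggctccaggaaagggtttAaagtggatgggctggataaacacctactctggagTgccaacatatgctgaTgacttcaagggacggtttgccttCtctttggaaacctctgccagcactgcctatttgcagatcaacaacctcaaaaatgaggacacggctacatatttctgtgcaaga
Ighv9-2: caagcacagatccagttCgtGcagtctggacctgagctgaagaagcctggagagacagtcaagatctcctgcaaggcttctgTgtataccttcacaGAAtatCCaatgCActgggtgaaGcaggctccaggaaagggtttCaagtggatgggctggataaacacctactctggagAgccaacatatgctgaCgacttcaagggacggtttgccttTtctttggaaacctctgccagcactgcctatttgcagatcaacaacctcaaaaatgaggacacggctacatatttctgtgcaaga

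Igkv15-103, the leading kappa segment, has its V exon at chr6:68437628-68437925 on the plus strand. Ighv11-2 (chr12:114048241-114048540, minus strand) and Igkv14-126 (chr6:67896345-67896642, plus strand) were abundant in the same few libraries. Ighv1-9 (chr12:114583569-114583868, minus strand) and Igkv4-58 (chr6:69500254-69500545, minus strand) held large shares of a single library. Exons longer than 300 bases are again printed as their last 300. In these 5 sequences capitals run from the last in-frame cysteine codon to the end, the germline start of CDR3, the loop that V joining completes.
Igkv15-103: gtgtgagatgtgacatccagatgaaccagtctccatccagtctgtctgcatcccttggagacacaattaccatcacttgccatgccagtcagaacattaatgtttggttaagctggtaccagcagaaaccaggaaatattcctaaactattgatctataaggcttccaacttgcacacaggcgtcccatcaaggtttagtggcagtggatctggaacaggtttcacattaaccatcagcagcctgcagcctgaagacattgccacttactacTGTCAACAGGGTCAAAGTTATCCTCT
Ighv11-2: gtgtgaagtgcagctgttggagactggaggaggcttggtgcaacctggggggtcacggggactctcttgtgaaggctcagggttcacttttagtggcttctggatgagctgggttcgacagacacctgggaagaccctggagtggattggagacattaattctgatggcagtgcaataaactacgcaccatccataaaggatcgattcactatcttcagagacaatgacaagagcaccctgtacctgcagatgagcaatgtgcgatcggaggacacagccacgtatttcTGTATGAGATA
Igkv14-126: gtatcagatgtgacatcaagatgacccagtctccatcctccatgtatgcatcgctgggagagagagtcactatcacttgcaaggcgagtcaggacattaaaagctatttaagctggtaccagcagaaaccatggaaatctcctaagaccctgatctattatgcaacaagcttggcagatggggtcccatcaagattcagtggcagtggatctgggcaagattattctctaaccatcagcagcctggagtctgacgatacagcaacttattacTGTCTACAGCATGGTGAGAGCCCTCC
Ighv1-9: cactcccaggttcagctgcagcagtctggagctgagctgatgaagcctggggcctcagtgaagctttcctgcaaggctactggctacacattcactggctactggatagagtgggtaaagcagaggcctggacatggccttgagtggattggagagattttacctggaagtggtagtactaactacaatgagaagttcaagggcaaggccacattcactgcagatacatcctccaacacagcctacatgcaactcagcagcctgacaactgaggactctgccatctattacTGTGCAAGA
Igkv4-58: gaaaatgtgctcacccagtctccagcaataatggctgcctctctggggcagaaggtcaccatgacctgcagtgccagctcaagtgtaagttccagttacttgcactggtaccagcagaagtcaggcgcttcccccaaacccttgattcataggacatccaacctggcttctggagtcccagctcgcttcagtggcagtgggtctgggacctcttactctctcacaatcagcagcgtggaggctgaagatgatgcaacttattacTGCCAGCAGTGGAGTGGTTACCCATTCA

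V segment transcripts were scarce in every library, and they varied between tumours of 1 group more than between groups. Reads in the 158 segments ranged from 199 (IGEL replicate 1) to 4796 (IGEL replicate 5), which is 0.000513% to 0.0141% of a library. In PBS the summed level was 6.17 CPM in the lowest, 20.1 CPM at the median and 34.7 CPM in the highest library. GEM had 12.6, 36.3 and 41.7 CPM in the same order. Ranges of PBS and GEM overlapped, with GEM replicate 1 lower than 4 of the PBS libraries.

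IGEL had 5.03, 75.0 and 133.9 CPM as its lowest, median and highest values, so this group held both the lowest and the highest library of the study. LIGEL had 14.3, 28.2 and 101.3 CPM. Every treated group overlapped PBS, although 11 of the 18 treated libraries lay above the highest PBS library (4 of GEM, 4 of IGEL and 3 of LIGEL). The same counts were found with V reads as a percentage of the library total, without composition factors. IGEL replicates 2, 4 and 5 carried 85.8% of the V reads of their group, and LIGEL replicate 2 alone carried 43.2% of the reads of LIGEL.

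On the log2 scale the group means differed by 0.83 ± 0.50 (SE) for GEM against PBS, by 1.42 ± 0.88 for IGEL against PBS and by 0.90 ± 0.62 for LIGEL against PBS (n = 6 each). Each of these differences was smaller than the pooled SD between libraries, which was 0.87, 1.53 and 1.07. Between treated groups the differences were -0.52 ± 0.90 for LIGEL against IGEL, 0.59 ± 0.83 for IGEL against GEM and 0.07 ± 0.54 for LIGEL against GEM. A sum over chosen segments is given as a description, with no p. Without the 6 A1 to A3 libraries GEM against PBS was 0.96, IGEL against PBS 2.04 and LIGEL against IGEL -1.65, which were then larger than the pooled SDs of all libraries (0.87, 1.53 and 1.56). LIGEL against PBS was 0.39, IGEL against GEM 1.09 and LIGEL against GEM -0.57 without these libraries, under those SDs. The last difference also turned negative with group medians (-0.44), so no order of LIGEL and GEM can be read.

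**Figure D1:**
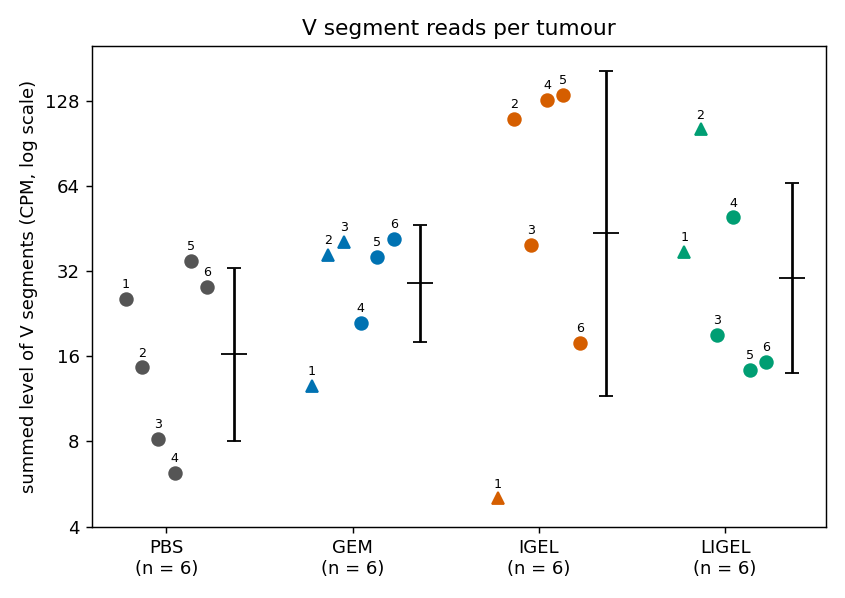
Summed level of the 158 V segments in each library (CPM on a log axis, 1 point per library, replicate number above it, triangles for the A1 to A3 libraries). The black bars give the mean and SD on the log2 scale (n = 6); IGEL reaches from 5.03 to 133.9 CPM and covers the range of all other groups.

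The number of different segments seen followed the number of V reads. With at least 1 read, 69.2 ± 19.99 segments were seen for PBS, 92 ± 22.1 for GEM, 98.7 ± 34.2 for IGEL and 89.3 ± 18.3 for LIGEL (mean ± SD, n = 6). The extremes were 42 segments in IGEL replicate 1, with 199 V reads, and 135 in IGEL replicate 5, with 4796. To compare libraries at equal depth, the number expected in 100 V reads was computed for each. At that depth PBS had 39.3 ± 4.41 segments, GEM 41.0 ± 3.54, IGEL 40.1 ± 4.76 and LIGEL 39.8 ± 1.91. At 100 reads and with all libraries, the 6 differences between groups were within 1.73 segments, under the pooled SD between libraries. Without the A1 to A3 libraries GEM against PBS was 2.03, IGEL against PBS 1.98 and LIGEL against PBS 0.65 segments. LIGEL against IGEL was then -1.33, IGEL against GEM -0.05 and LIGEL against GEM -1.38, all 6 still under those SDs. At 200 reads IGEL against PBS was 5.57 and GEM against PBS 5.01 segments. The SDs of 4.59 and 3.995 belong to 100 reads and do not measure the spread at 200. IGEL replicate 1, with 199 V reads, drops out at 200. Of the 158 segments, 97 had a read in 12 or more libraries, and only 6 had a read in all 24: Ighv9-3, Ighv9-2, Igkv15-103, Igkv4-50, Igkv10-96 and Igkv6-23.

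Segment use was uneven in every group. The effective number of segments is the number of equally used segments that would give the same chance that 2 random reads share a segment. It was 15.6 ± 6.37 for PBS, 15.7 ± 7.13 for GEM, 19.01 ± 5.502 for IGEL and 12.1 ± 3.58 for LIGEL (n = 6). Single libraries ran from 8.62 (GEM replicate 1) to 29.1 (GEM replicate 4), so the GEM group alone spanned the whole range. The most abundant segment of a library took 22.8 ± 7.02% of V reads for PBS, 21.9 ± 7.50% for GEM, 17.6 ± 4.86% for IGEL and 26.6 ± 4.65% for LIGEL. The 5 most abundant together took 42.0 ± 6.68%, 43.6 ± 6.98%, 40.2 ± 6.61% and 45.0 ± 4.58%, and the 10 most abundant between 46.4% and 67.1% in any library.

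LIGEL was the group with the lowest effective number, and its log2 difference from IGEL was -0.65 ± 0.24 (SE), larger than the pooled SD of 0.41. The LIGEL libraries held 9.43 to 17.03 and the IGEL libraries 12.1 to 26.0, so the groups overlapped. The sign depended on Ighv9-3: without this segment the difference was 0.18, and among kappa segments alone it was 0.15. Without the A1 to A3 libraries it was -0.45. Without Ighv9-3 the effective numbers were 34.04 ± 13.3 for PBS, 32.4 ± 10.3 for GEM, 32.02 ± 9.49 for IGEL and 35.0 ± 5.22 for LIGEL, with the groups closer than their SDs. The other 5 differences, from -0.32 to 0.33, were under the pooled SD between libraries. Without the A1 to A3 libraries LIGEL against GEM was -0.63, larger in size than the pooled SD of 0.50 found with all libraries. GEM against PBS was then 0.42, and IGEL against GEM turned from 0.33 to -0.18. In these values GEM rests on replicates 4 to 6, with effective numbers of 29.1, 15.4 and 16.7.

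**Figure D2:**
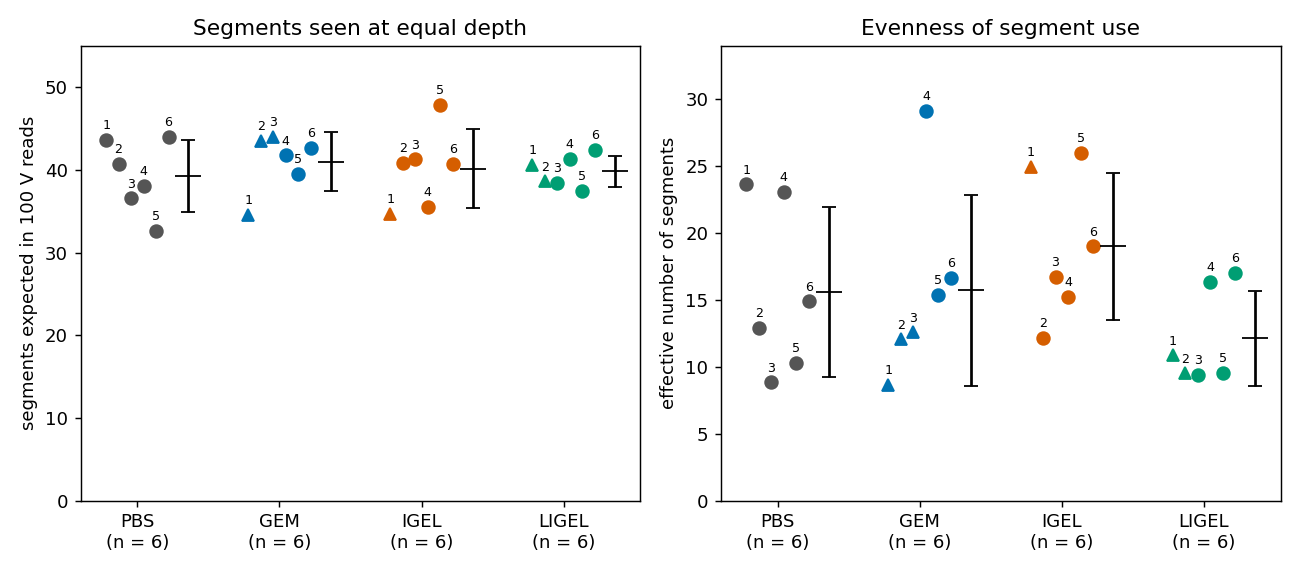
Left, segments expected in 100 V reads. Right, effective number of segments. Each point is a library with its replicate number (triangles for the A1 to A3 libraries), and black bars give mean ± SD (n = 6); on the left the group means lie between 39.3 and 41.0, on the right LIGEL is lowest at 12.1 and all groups overlap.

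Ighv9-3 (ENSMUSG00000096459, chr12:114140692-114141122) was the most abundant V segment in 22 of 24 libraries and the most abundant heavy chain segment in 23. It held 7243 reads, 21.1% of all V reads, where the second segment held 1913 and the median segment 102.5. Its share of V reads was 4.67% at the lowest, in PBS replicate 5, 20.7% at the median and 31.9% at the highest, in PBS replicate 3. The counting error of these shares is small beside that range: the Wilson 95% interval of the top share was 26.8 to 37.4% in PBS replicate 3, and 24.4 to 27.0% in the deeper IGEL replicate 2. No molecular identifiers are named in the sources used here, so such intervals cover counting error only. Per base of gene length its mean share was 21.9%, since segments are alike in length (338 to 480 bases). Of the heavy chain reads alone it took 41.7 ± 13.2% (n = 24). Ighv9-2, at 94.3% identity over the transcript, had 331 reads.

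The level of Ighv9-3 was 0.894, 3.14 and 6.54 CPM in the lowest, median and highest PBS library, and 2.32, 6.36 and 10.3 CPM in GEM. IGEL had 0.632, 13.3 and 28.4 CPM, and LIGEL 3.19, 7.97 and 29.8 CPM. All treated groups overlapped PBS, and the highest libraries were LIGEL replicate 2 and IGEL replicate 2. With edgeR's quasi-likelihood test the log2 fold change was 1.03 ± 0.67 (SE) for GEM (adjusted p = 0.804), 2.04 ± 0.68 for IGEL (adjusted p = 0.306) and 1.73 ± 0.68 for LIGEL (adjusted p = 0.168) against PBS. None passed an adjusted p of 0.05. Without the A1 to A3 libraries the values were 0.63 for GEM, 2.25 for IGEL and 0.86 for LIGEL. Set against the IgA constant gene, there were 0.0633 to 0.297 Ighv9-3 reads per Igha read, with group means of 0.143 for PBS, 0.167 for GEM, 0.166 for IGEL and 0.191 for LIGEL that lay within their SDs of 0.0556 to 0.0794.

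Igkv15-103 (ENSMUSG00000076523, chr6:68437440-68437925), a kappa segment and the sole member of its family in the set, came second in 11 libraries and was the top kappa segment in 13. Its share of V reads was lowest in the control group. In PBS it held 1.501, 2.31 and 4.09% in the lowest, median and highest library, and in LIGEL 5.43, 6.77 and 8.38%. These 2 groups did not overlap, and LIGEL replicates 3 to 6, outside the A1 to A3 libraries, held 6.21 to 6.86%. The PBS libraries had only 221 to 1013 V reads, so few Igkv15-103 reads stand behind each PBS share. The counting error of these shares was not computed, and the gap from 4.09% to 5.43% may lie within it.

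Igkv15-103 held 3.26, 5.45 and 8.64% of V reads in GEM and 2.82, 5.90 and 9.95% in IGEL, both overlapping PBS. GEM replicate 4 and IGEL replicate 4 were below the highest PBS library, PBS replicate 5, and IGEL replicate 5 was level with it at 4.09%. As a share of kappa reads alone the values were 5.30 ± 1.20% for PBS, 12.7 ± 3.996% for GEM, 12.8 ± 6.41% for IGEL and 14.4 ± 1.99% for LIGEL (n = 6). On this measure every GEM library (7.62 to 17.6%) and every LIGEL library (12.1 to 16.95%) lay above PBS (3.51 to 6.62%). IGEL (5.86 to 23.5%) overlapped PBS through its replicate 4. How many other kappa segments separate from PBS on this measure was not counted. Its counting error was not computed either, and kappa reads are only a part of the few V reads in PBS. A share does not depend on library scaling. Among the 158 segments Igkv15-103 was the only one whose LIGEL shares of V reads all lay above PBS (1 of 158, 0.633%). The same number was found for GEM against PBS (0.633%, Ighv1-11, at 0 in all 6 PBS libraries and 0.134 to 1.42% in GEM) and for LIGEL against GEM (0.633%, Ighv1-74, at most 0.140% in GEM and 0.155 to 1.74% in LIGEL). In the opposite direction, Igkv8-19 was lower in every LIGEL than in every IGEL library (0.633%; at most 0.0776% and at least 0.113%) and Igkv3-1 lower in every IGEL than in every GEM library (0.633%; at most 0.145% and at least 0.178%). No segment did so for IGEL against PBS (0%). The segments named here beside Igkv15-103 were picked out by this pattern, so it is a description. Their bounds sit near the floor, where a share can rest on very few reads, since libraries held as few as 199 V reads.

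The level of Igkv15-103 was 0.140, 0.339 and 1.42 CPM in the lowest, median and highest PBS library. GEM had 0.673, 1.96 and 3.50 CPM, IGEL 0.278, 3.06 and 7.998 CPM and LIGEL 0.950, 1.65 and 8.49 CPM. Each treated group overlapped PBS in level. In edgeR the log2 fold change against PBS was 1.80 ± 0.71 (SE) for GEM (adjusted p = 0.804), 2.73 ± 0.73 for IGEL (adjusted p = 0.306) and 2.39 ± 0.72 for LIGEL (adjusted p = 0.124). DESeq2 gave 2.67 for IGEL (adjusted p = 0.0351) and 2.33 for LIGEL (adjusted p = 0.0195), and limma voom 3.56 (adjusted p = 0.0945) and 3.19 (adjusted p = 0.113). The segment therefore passed with DESeq2 and missed with the other tools. Without the A1 to A3 libraries the edgeR values were 1.65 for GEM, 2.92 for IGEL and 1.56 for LIGEL. Its nearest relative in the annotation, the pseudogene Igkv15-97, is 84.9% identical.

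**Figure D3:**
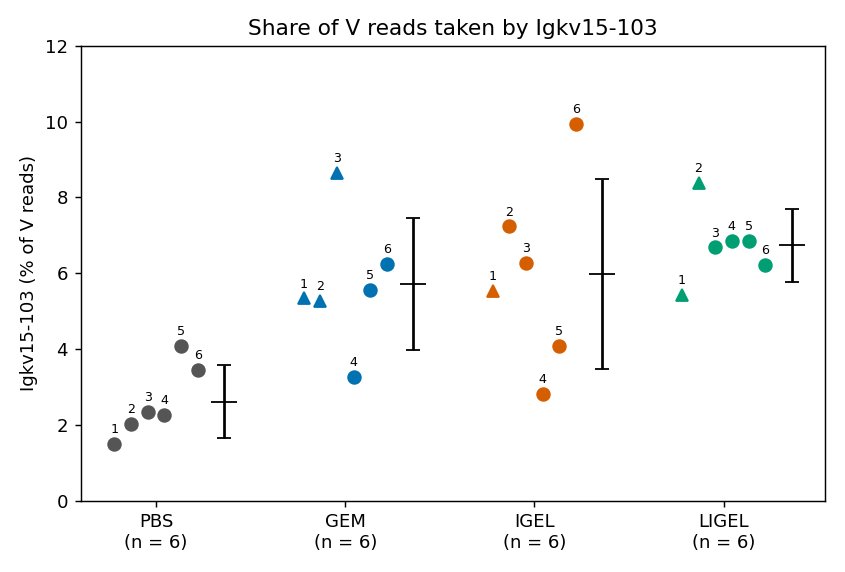
Share of V reads taken by Igkv15-103 in each library (%, 1 point per library with its replicate number, triangles for the A1 to A3 libraries, black bars mean ± SD, n = 6). All LIGEL libraries (5.43 to 8.38%) lie above all PBS libraries (1.501 to 4.09%), while GEM and IGEL overlap PBS. The PBS libraries had 221 to 1013 V reads, and counting error is not shown.

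Across all segments, no V gene passed the edgeR test in any comparison. The edgeR fit tested 19253 genes, among them 43 of the 158 segments, and called 0 genes (0%) at an adjusted p under 0.05 in each of the 6 comparisons. A segment that entered only through a group where it was high had to differ, so the counts over the 43 are given as they stand. At an unadjusted p under 0.05, 18 of the 43 were higher in IGEL than in PBS and 0 lower, beside 5.79% and 9.25% of all genes. GEM against PBS gave 4 higher and 0 lower (1.92% and 2.89% of genes), and LIGEL against PBS 5 and 0 (6.28% and 14.2%). Between treated groups 0 segments were higher and 3 lower for LIGEL against IGEL (0.426% and 0.831%), 6 and 0 for IGEL against GEM (0.878% and 0.706%), and 1 and 0 for LIGEL against GEM (0.831% and 2.33%).

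These counts moved with single libraries and with the A1 to A3 libraries. For IGEL against PBS the count higher was 34 of 65 segments tested without the A1 to A3 libraries (578 of 20182 genes). It was 27 of 48 without IGEL replicate 1 (683 of 19564 genes) and 24 of 48 without IGEL replicate 6 (806 of 19565 genes). Without IGEL replicate 2 or 5 it was 11 of 45 (1192 of 19538 and 1074 of 19551 genes). With any other library of these groups left out it was 13 to 21 of 45 to 48 (874 to 1307 of 19496 to 19582 genes). For LIGEL against PBS it was 1 of 48 without LIGEL replicate 2 (866 of 19562 genes). There the median log2 fold change of the tested segments went from 0.91 to 0.44. The count was 3 of 48 without PBS replicate 2, 3 or 4 (1213 of 19560, 1537 of 19576 and 1423 of 19568 genes). Without PBS replicate 1 it was 8 of 45 (1099 of 19496 genes). Without the A1 to A3 libraries it was 3 higher and 1 lower of 65 (455 and 1545 of 20182 genes), with a median of 0.26. For GEM against PBS the count higher was 9 of 65 without the A1 to A3 libraries (82 of 20182 genes). It was 2 of 48 without PBS replicate 3 (460 of 19576 genes) and 2 of 47 without GEM replicate 2 (295 of 19528 genes). For LIGEL against IGEL the count lower was 22 of 65 without the A1 to A3 libraries (186 of 20182 genes). It was 9 of 48 without LIGEL replicate 2 (157 of 19562 genes) and 8 of 48 without IGEL replicate 1 (216 of 19564 genes). With any other library of these groups left out it was 3 to 7 of 45 to 48 (103 to 190 of 19520 to 19588 genes). For IGEL against GEM the count higher was 13 of 65 without the A1 to A3 libraries (115 of 20182 genes). It was 13 of 48 without IGEL replicate 1 alone (287 of 19564 genes) and 9 of 48 without IGEL replicate 6 (206 of 19565 genes). With any other library of these groups left out it was 3 to 6 of 45 to 48 (127 to 235 of 19520 to 19584 genes). For LIGEL against GEM it was 0 higher and 7 lower of 65 without the A1 to A3 libraries (121 and 231 of 20182 genes). With 1 library left out it was at most 2 in either direction, of 45 to 48 tested. Over all genes those fits gave 113 to 211 higher and 241 to 709 lower, of 19528 to 19588.

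Without the expression filter all 158 segments entered the edgeR fit, and 0 were called. At an unadjusted p under 0.05, 51 were higher and 1 lower in IGEL than in PBS, beside 4.71% and 7.98% of 35217 genes. GEM against PBS gave 19 higher and 2 lower (2.58% and 4.07% of genes). LIGEL against PBS gave 15 higher and 7 lower (4.81% and 11.5%). For LIGEL against IGEL 3 were higher and 26 lower (1.63% and 2.92%), for IGEL against GEM 26 and 1 (2.39% and 2.54%), and for LIGEL against GEM 7 and 12 (1.92% and 3.87%). The median log2 fold change of the 158 was 0.62 for GEM, 1.84 for IGEL and 0.79 for LIGEL against PBS, beside -0.01, -0.01 and -0.02 for all genes. The 158 segments needed at least 10 reads over the 24 libraries, whereas the 35217 genes needed only 1. A segment that reached 10 reads mainly through 1 group had to be higher there. Of the 29 segments with over 50% of their reads in a single library, 21 had them in IGEL. The counts and medians of the 158 are therefore a description and are not set against those of all genes. Segments share libraries and are not independent, and the 3 comparisons with PBS share its 6 libraries.

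DESeq2 called 85 genes for IGEL against PBS (0.526% of those tested), among them Igkv15-103 and Ighv1-9, and 1229 for LIGEL against PBS (6.55%), with Igkv15-103 alone among the segments. Its own filter on low counts left an adjusted p for 12 of the 43 segments in the first comparison and for 36 of 43 in the second. Limma voom with sample quality weights called 63 genes for GEM against PBS (0.327%) with 0 segments, 381 for IGEL against PBS (1.98%) with the segments Igkv3-4, Igkv3-2 and Ighv1-82, and 734 for LIGEL against PBS (3.81%) with 0 segments. Both tools called 0 genes between treated groups. The segments with the smallest edgeR p for GEM against PBS were Igkv3-4 (log2 fold change 3.24, adjusted p = 0.804), Igkv15-103 and Ighv8-8. In edgeR those for IGEL were Igkv15-103, Ighv1-9 and Igkv6-23 (2.24, adjusted p = 0.306), and those for LIGEL Igkv15-103, Igkv6-25 (2.71, adjusted p = 0.158) and Ighv9-3.

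**Figure D4:**
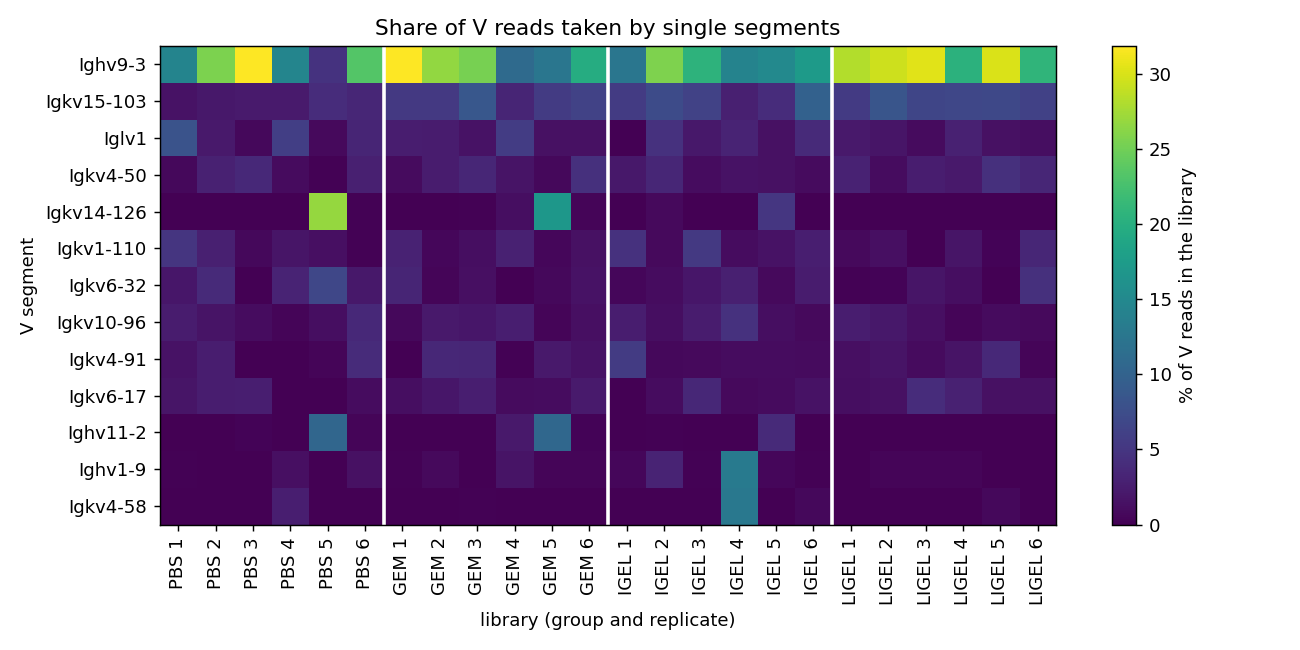
Share of V reads (%, colour) taken in each library by the 10 segments with the highest mean share over the 24 libraries, and by Ighv11-2, Ighv1-9 and Igkv4-58. Rows are segments, columns are libraries in group order; Ighv9-3 is bright in nearly every column, while Igkv14-126, Ighv11-2, Ighv1-9 and Igkv4-58 are bright in 1 to 3.

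Below the first 2 segments the shares were far lower. Iglv1, the main lambda segment, held 2.56% of V reads averaged over libraries, Igkv4-50 2.16%, Igkv14-126 2.15%, Igkv1-110 1.88% and Igkv6-32 1.77%. Igkv10-96 held 1.68%, Igkv4-91 1.63% and Igkv6-17 1.61%. Iglv1 was absent from IGEL replicate 1 and reached 8.20% in PBS replicate 1. Heavy chain segments took 49.8 ± 5.58% of V reads (n = 24), kappa segments 47.2 ± 6.06% and lambda segments 2.95 ± 2.04%.

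The Ighv9 family (3 segments) held 22.6% of V reads, nearly all through Ighv9-3. The large Ighv1 family (39 segments) held 14.7%, with 14.9 ± 5.75% for PBS, 12.997 ± 3.48% for GEM, 18.4 ± 3.68% for IGEL and 12.4 ± 2.98% for LIGEL. The kappa families Igkv4 (20 segments) and Igkv6 (8 segments) held 7.97% and 7.09%. Along the heavy chain locus, chr12:113588267-116000461, the third of the span nearest the constant genes had 32 of the 78 segments and 67.4 ± 9.04% of heavy chain reads, or 43.6 ± 10.8% without Ighv9-3.

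Ighv11-2 and Igkv14-126 appeared together in a few libraries and were nearly absent from the others. This heavy and light chain combination is known from B-1a cells, an innate-like B cell lineage of the body cavities, as an antibody that binds phosphatidylcholine. Ighv11-2 had 54 reads in PBS replicate 5, 136 in GEM replicate 5, 184 in IGEL replicate 5 and 15 in GEM replicate 4, and at most 6 in any other library. Igkv14-126 had 138, 215 and 242 reads in the first 3 of these and 8 in GEM replicate 4. Elsewhere it had at most 36, in IGEL replicate 2.

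The pair made up 37.4% of V reads in PBS replicate 5, 27.5% in GEM replicate 5 and 8.88% in IGEL replicate 5. Igkv14-126 was the most abundant segment in the first 2, the only libraries in which Ighv9-3 did not lead. No LIGEL library held more than 0.124%. PBS, GEM and IGEL each had 1 such library. Ighm, the IgM constant gene, took 64.6% of heavy constant gene reads in PBS replicate 5, 53.1% in GEM replicate 5 and 24.6% in IGEL replicate 5, beside a median of 12.6% over all 24. The value of IGEL replicate 5 does not stand apart: PBS replicate 1 and LIGEL replicate 5, with no read of the pair, had 25.3% and 23.9%.

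The 14 mature B cell markers summed to 29.2, 27.9 and 40.2 CPM in PBS, GEM and IGEL replicate 5, inside the range of 10.1 to 48.8 CPM over all libraries, and the acinar genes to 605544, 837.1 and 2857.5 CPM. The part of these cells in the pair's level was not tested. Ighv11-2 is 98.9% identical to Ighv11-1, which had 1 read in all, so reads of these 2 genes could not be fully told apart. That reads of the 2 segments come from the same cells is not measured in bulk RNA.

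**Figure D5:**
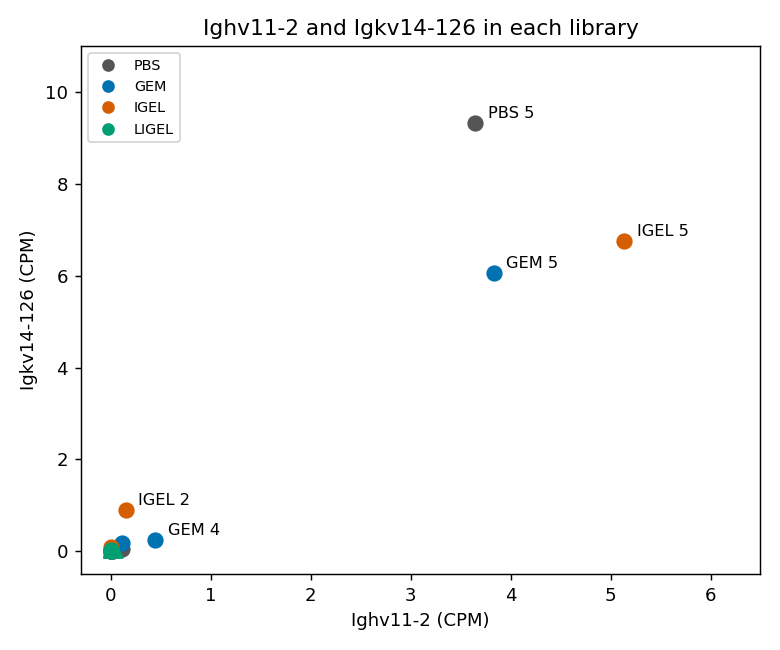
Level of Igkv14-126 (CPM, vertical) against Ighv11-2 (CPM, horizontal), 1 point per library coloured by group. PBS, GEM and IGEL replicate 5 lie far from the origin (3.65 to 5.14 CPM of Ighv11-2), GEM replicate 4 and IGEL replicate 2 slightly off it, and the other libraries at or near 0.

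Other segments were prominent in IGEL replicate 4, where Ighv9-3 still led with 14.2% of V reads. The heavy chain segment Ighv1-9 had 543 reads there, 13.1% of V reads (Wilson 95% interval 12.1 to 14.2%), and the kappa segment Igkv4-58 had 529, or 12.8% (11.8 to 13.8%). Igkv4-58 had 549 reads in the whole study, 96.4% of them in this library, and at most 6 in any other. Ighv1-9 was also seen at 143 reads in IGEL replicate 2 and 25 in IGEL replicate 5, and at most 17 elsewhere. The heavy chain segment Ighv4-1 followed with 247 reads, 71.0% of its total. Igkv4-58 and Ighv4-1 are described because of these values.

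Among the named segments that passed the expression filter Ighv1-9 had the largest edgeR log2 fold change for IGEL against PBS, and IGEL replicate 4 set much of its size. Its levels in PBS were 0 to 0.416 CPM and in IGEL 0.0253 to 16.9 CPM, so the groups overlapped. The edgeR log2 fold change for IGEL against PBS was 5.11 ± 1.43 (SE, adjusted p = 0.306), and DESeq2 gave 5.20 (adjusted p = 0.0435). Without IGEL replicate 4 the edgeR value was 3.12 (adjusted p = 0.233). IGEL replicate 4 was also the library with the most IgG among its heavy constant reads, 63.4%, with 4465 reads of Ighg2c and 876 of Ighg1. Its skeletal muscle genes summed to 324.8 CPM, against at most 26.7 CPM elsewhere, and their part in its V reads was not tested.

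In all, 29 segments had over 50% of their reads in a single library, 21 of them in IGEL, 5 in LIGEL, 2 in PBS and 1 in GEM. The 21 fell in IGEL replicates 2, 4 and 5 (5, 5 and 11 segments), which together held 39.0% of all V reads of the study. Of the 29, 16 had at least 50 reads. They include Igkv14-111, Ighv1-58 and Ighv1-11 in IGEL replicate 5, at 63.8%, 79.4% and 71.0% of their reads, Ighv1-69 in IGEL replicate 2 at 60.8% and Ighv1-42 in LIGEL replicate 4 at 71.2%. Igkv8-16, with 86.3% of its reads in IGEL replicate 5, has a row of identical sequence in the annotation, Gm43218, which had 1 read. They were likewise picked for their values.

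Pairs of libraries were compared by their segment counts. A chi-square per degree of freedom between the segment counts of 2 libraries, where 1 is sampling noise, had a median of 9.19 over the 60 pairs within a group and 8.92 over all other pairs. The lowest of the 276 pairs was 3.25, and every pair lay above sampling noise.

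Every antibody transcript carries a constant gene. Igkc, Igha and Ighg2c had their highest group mean in IGEL and their lowest in PBS, with overlapping groups, and no constant gene passed the edgeR test. Igkc, the kappa constant gene, averaged 16.99 ± 14.04 CPM for PBS, 26.5 ± 9.79 for GEM, 58.5 ± 48.6 for IGEL and 31.8 ± 23.96 for LIGEL (SD, n = 6). Its edgeR log2 fold change against PBS was 0.65 for GEM, 1.79 for IGEL and 0.91 for LIGEL (adjusted p = 0.821, 0.306 and 0.414). Without the A1 to A3 libraries the Igkc values were 0.78, 1.98 and 0.29. There were 0.902 to 1.83 V reads per Igkc read, a narrow range beside that of the V reads themselves. Igha, for IgA, averaged 21.99 ± 8.05, 38.9 ± 15.4, 68.2 ± 47.3 and 53.0 ± 34.5 CPM in PBS, GEM, IGEL and LIGEL, with edgeR log2 fold changes of 0.82, 1.63 and 1.27 (adjusted p = 0.804, 0.306 and 0.171). Without the A1 to A3 libraries the Igha fold changes were 0.85, 1.83 and 0.77. Igha took 54.8 ± 14.4% of heavy constant reads over the 24 libraries.

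Ighg2c, the IgG2c gene, averaged 6.47 ± 10.3 CPM for PBS, 14.9 ± 11.1 for GEM, 51.3 ± 56.1 for IGEL and 19.4 ± 19.3 for LIGEL. Its edgeR log2 fold change in IGEL was 2.98 (adjusted p = 0.306), and 3.18 without the A1 to A3 libraries. Ighg1 stayed at or below 1.37 CPM outside IGEL and reached 27.3 and 15.3 CPM in IGEL replicates 4 and 5 (edgeR log2 fold change 5.05, adjusted p = 0.306). In IGEL against PBS the other constant genes had log2 fold changes of 2.11 for Ighg2b, 3.62 for Ighg3, 0.98 for Ighm, 0.45 for Ighd, 2.01 for Iglc1 and 1.07 for Jchain, which links antibody units into polymers (edgeR adjusted p = 0.306 for Ighg3, the smallest, to 0.827 for Ighd). Ighe, Iglc2 and Iglc3 were too low to be tested.

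Transcripts that mark B cells themselves were low. The mature B cell list (14 genes) had medians of 27.4 CPM for PBS, 24.1 for GEM, 24.0 for IGEL and 26.5 for LIGEL, and 11 of its genes were tested with 0 called. Of these 11, 3 had a positive and 8 a negative log2 fold change for IGEL against PBS (median -0.11). Against PBS the split was 7 and 4 for GEM and 5 and 6 for LIGEL. Ms4a1 (CD20) averaged 0.206 ± 0.216 CPM for PBS, 0.391 ± 0.373 for GEM, 0.252 ± 0.174 for IGEL and 0.200 ± 0.179 for LIGEL (SD, n = 6). Cd79a, a signalling chain of the B cell receptor, averaged 0.794 ± 0.518, 0.872 ± 0.410, 0.953 ± 0.667 and 0.772 ± 0.266 CPM in the same order. Mzb1, a plasma cell chaperone, averaged 0.328 ± 0.272, 0.399 ± 0.247, 0.794 ± 0.771 and 0.288 ± 0.164 CPM. Tnfrsf17 (BCMA), another plasma cell marker, had at most 4 reads in any library, and the recombinase genes Rag1 and Rag2, expressed in B cell precursors, had at most 4 and 1. The plasma cell list (11 genes) summed to 537.7 to 2051 CPM, and its genes Sdc1 and Xbp1, with PBS means of 169.3 and 299.6 CPM, are also expressed by epithelial and acinar cells. Of its 10 genes tested for IGEL against PBS, 6 had a positive and 4 a negative log2 fold change, and edgeR called 0. Its medians were 608.4 CPM for PBS, 692.5 for GEM, 669.2 for IGEL and 644.3 for LIGEL.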

How the data were processed

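Bulk RNA was measured in 24 libraries, and the deposited table holds raw read counts per gene, made by the authors with HISAT2, featureCounts (Subread) and build mm10, as named in the submitters' processing notes. Tool versions, annotation release and strand setting are not given in the sources used here. All 24 columns were mapped to samples by name.

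Genes were filtered (edgeR filterByExpr, minimum count 10, minimum total 15), leaving 19253 genes, 43 of the 158 V segments among them, and removing 0.0666% of counts. Counts were scaled by TMM, and CPM are TMM-scaled. All 24 libraries entered 1 fit with edgeR 4.0.16 (R 4.3.3, limma 3.58.1), using the quasi-likelihood test with Benjamini-Hochberg adjustment over all genes tested and a threshold of 0.05. The SE of a log2 fold change comes from that fit. The step was tested on simulated data: with 200 of 19253 genes changed 4-fold for LIGEL against PBS, 88.5% were recovered and 4.32% of calls were false. The 200 were drawn from genes with a mean over 1 CPM. The median V segment, with 102.5 reads over all 24 libraries, lay below that level, so the 88.5% does not describe such segments.

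Per library, segments expected in 100 V reads (exact expectation) and 1 over the unbiased Simpson index (effective number) were computed in Python 3.11.15 (pandas 2.3.3, scipy 1.17.1, matplotlib 3.10.9). Such scores are given with their SD and no p. The segments named are the top segment of each library, the 10 with the highest mean share, those called or, with none called, the 3 with the smallest p against PBS, and the constant genes. Lists covered heavy and light constant genes, mature B, germinal centre, plasma and precursor B cells, B cell attraction, Fc receptors, T cells, acinar cells, muscle, tumour epithelium and erythroid cells. The segments and lists were chosen with earlier results of these data known.

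Alternatives were DESeq2 1.42.0, limma voom with quality weights, other scalings, filters, member minimums, depths and indices, the replicate number as a block, and leaving out libraries. Leaving out Ighv9-3 was added after seeing the data. No pair of libraries matched within sampling noise (chi-square per degree of freedom of 17.4 or more over 60 replicate pairs). V exon sequences are from GENCODE mouse release 21, where all 158 segments have the coordinates of the table.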

Additional observations from a re-analysis of the deposited data

Results flagged for a closer look

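The summed V level, the segments seen in 100 reads, the effective number, the share of the top segment, the share of Ighv9-3 and the levels of 6 segments were compared within each group, leaving out segments with under 10 reads in every library of the group. Of these 39 sets of 6 libraries 11, all of them segments, had a highest library whose gap to the next, as a part of the whole range, was above the Dixon critical value for 6 samples. Chance gives about 1 in 20 in independent sets that were not chosen for their peaks. Here 4 of the 6 segments were described because they are high in few libraries, and segments share libraries, so the 11 is a description and is not set against chance. The level of Ighv9-3 was 29.8 CPM in LIGEL replicate 2, where the other LIGEL libraries had at most 10.54 CPM, and Igkv15-103 was 8.49 CPM in the same library.

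Ighv11-2 stood out in replicate 5 of PBS (3.65 CPM), GEM (3.83 CPM) and IGEL (5.14 CPM), and Igkv14-126 in the same libraries (9.32, 6.06 and 6.75 CPM). Ighv1-9 was highest by a wide gap in PBS replicate 6, at 0.416 CPM, and in IGEL replicate 4, at 16.9 CPM. Igkv4-58 stood at 16.5 CPM in IGEL replicate 4.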

How the results depend on the processing

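Of 969 alternatives over 48 results, 938 kept direction and side of the threshold or moved by less than the SD between libraries. Without equal depth, segments with at least 1 read differed by 22.8 (GEM against PBS), 29.5 (IGEL against PBS), 20.2 (LIGEL against PBS), -9.33 (LIGEL against IGEL) and 6.67 (IGEL against GEM). With at least 5 reads the values were 19.2, 34.5, 18.7, -15.8 and 15.3. At 200 reads, where IGEL replicate 1 (199 V reads) drops out, IGEL against PBS was 5.57. The log2 difference in effective number was 0.15 for LIGEL against IGEL and 0.23 for LIGEL against GEM with kappa segments alone, and 0.18 for LIGEL against IGEL without Ighv9-3. DESeq2 called 85 genes for IGEL and 1229 for LIGEL against PBS, with 2 and 1 segments, and limma voom 63 for GEM, 381 for IGEL (3 segments) and 734 for LIGEL. DESeq2 passed Igkv15-103 at 2.67 (IGEL) and 2.33 (LIGEL) and Ighv1-9 at 5.20 (IGEL). With 1 library left out, edgeR called 0 to 18 genes for IGEL and 0 to 173 for LIGEL against PBS: the 18 and 173 came without PBS replicate 5, and 2 for LIGEL without PBS replicate 4. Ighv1-9 for LIGEL against PBS (0.41) was -0.12 with the replicate block, -0.22 without the A1 to A3 libraries and -0.50 without LIGEL replicate 2, within -0.50 to 1.98 over libraries left out. The causes were not tested. Replicate numbers did not pair the samples (mean correlation of deviations -0.0061 over 36 same-numbered pairs, and 6 of 24 libraries correlating best with their own number), and with the replicate block edgeR called 0 genes in every comparison. Depth limits the raw counts of segments, with 42 seen in the 199 V reads of IGEL replicate 1.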

Other observations

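Rows of V pseudogenes, which cannot give an antibody chain, held 95 reads in 155 rows, 27 of them in PBS replicate 5. The 4 rows of the IG_LV biotype had 0 reads.

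Other gene lists gave no edgeR call at an adjusted p under 0.05 in any comparison. T cell genes (12, all tested) had a positive log2 fold change in 12 of 12 for IGEL and for LIGEL against PBS and in 10 of 12 for GEM against PBS, with summed medians of 53.9 CPM for PBS, 68.4 for GEM, 115.5 for IGEL and 97.9 for LIGEL and overlapping ranges. The B cell attraction list had medians of 22.5, 28.3, 33.04 and 29.4 CPM in that order of groups. Germinal centre genes had 107.5, 108.9, 118.6 and 115.5 CPM, with Rgs13 at 0 in all libraries. Precursor B cell genes had 33.7, 32.7, 32.8 and 32.6 CPM. Immunoglobulin transport and Fc receptor genes had 380.4, 390.8, 368.01 and 412.7 CPM. Erythroid genes had medians of 5.12, 15.1, 12.7 and 13.6 CPM, with PBS replicate 6 highest of all at 100.9 CPM. Of the 7 tested, 6 had a negative log2 fold change for IGEL and for LIGEL against PBS (median -1.32 and -0.61). Acinar genes had medians of 17459, 10516, 8612 and 6281 CPM.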
